A study of Rattus norvegicus with 15 samples.

Results

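The DNA replication genes described here are 35 genes whose proteins copy the genome once per cell cycle, measured in rat femur after ovariectomy and 3 herbal treatments. They were chosen by gene name. The deposited tables hold 30454 genes, and the 35 names stand on 36 rows of them because Cdc45 names a pair of rows. All 36 rows were above the filter on low values, a mean of at least 1 FPKM (a level scaled by gene length and by library size, so that genes can be compared) over all libraries, so none had to be left out. The names came from known roles in replication and not from these measurements, although they were put together with earlier results of these data known.

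Ovariectomy in rats is a common model of bone loss after menopause, and the title of the study names osteoporosis as the condition treated. Female SD rats were 8 weeks old when the experiment began, and RNA from their femurs was sequenced in 15 libraries of 5 groups. PJ rats lost both ovaries and were given a combined extract of Juglans regia L. (walnut) and Psoralea corylifolia Linn. at 4.0 g per kg per day by daily gavage. P rats lost both ovaries and were given the Psoralea corylifolia extract alone at 2.4 g per kg per day, and J rats lost both ovaries and were given the Juglans regia extract alone at 1.6 g per kg per day. OVX rats lost both ovaries and were given saline. Sham rats kept their ovaries, had a like amount of fat removed and were given saline. Recovery from surgery took 6 weeks and treatment 8 weeks. Each group had 3 libraries, numbered 1 to 3, and the labels do not say whether each came from its own rat, so a p-value rests on the spread of these libraries, which may in part be technical.

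Before S phase, the origin recognition complex with Cdc6 and Cdt1 loads the ring of the MCM proteins onto DNA. Cdc45 and the GINS proteins then join the ring to make the working helicase, polymerases copy the strands behind it with the clamp Pcna, and nucleotide-making enzymes and histone chaperones keep pace. Most of these genes are transcribed as cells approach S phase, under E2F transcription factors. A femur contains marrow, in which precursors of red cells, granulocytes and lymphocytes divide throughout life. In whole tissue, a lower level can come from fewer cells of a type or from less RNA per cell, and the 2 cannot be told apart here.

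Library totals worked out from the deposited values were 34.4 to 61.0 times 1000000 reads, and the number of genes with any read was 19435 to 20845 per library. Markers of osteoblasts, the bone-forming cells, were present in all libraries, with a mean log2(FPKM + 1) over 7 genes between 4.57 and 8.66. Whole groups differed in the level of cartilage markers, and the share of tissue behind it was not measured. The same mean over 7 cartilage genes was 5.14 to 6.07 in Sham, 0.22 to 0.32 in OVX and 0.29 to 2.47 in J. Some libraries also stood apart from the rest of their group. P 2 had a mean of 5.07 over 7 cartilage genes, against 1.15 in P 1 and 1.40 in P 3, while PJ 3 had 0.35, against 3.53 in PJ 1 and 4.34 in PJ 2. Sham 3 had 8.22 over the osteoblast genes, against 5.46 in Sham 1 and 4.57 in Sham 2. Counts without one of these libraries are given below where they differ by over 1.5 times.

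After ovariectomy, the genome-copying genes were higher as a body. In OVX against Sham, all 35 members rose, by log2 fold changes of 1.02 to 4.64 with a median of 2.63, whereas the median of all 14416 genes tested was -0.04. The second row named Cdc45 fell. Over all genes tested, 25.3% were called higher and 28.9% lower in this comparison (limma, Benjamini-Hochberg adjusted p below 0.05). The 3 OVX libraries were above the 3 Sham libraries for all 35 members, which was so for 31.6% of all genes tested. Leaving out any single library left the counts at 35 higher and 1 lower. The mean log2(FPKM + 1) over the members was 3.63, 3.20 and 3.80 in PJ, 3.84, 3.66 and 3.68 in P, 4.76, 4.12 and 4.57 in J, 5.16, 5.00 and 5.06 in OVX and 2.18, 2.25 and 2.60 in Sham, so that the 5 groups had levels in the order OVX, J, P, PJ and Sham, with PJ and P overlapping.

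**Figure D1:**
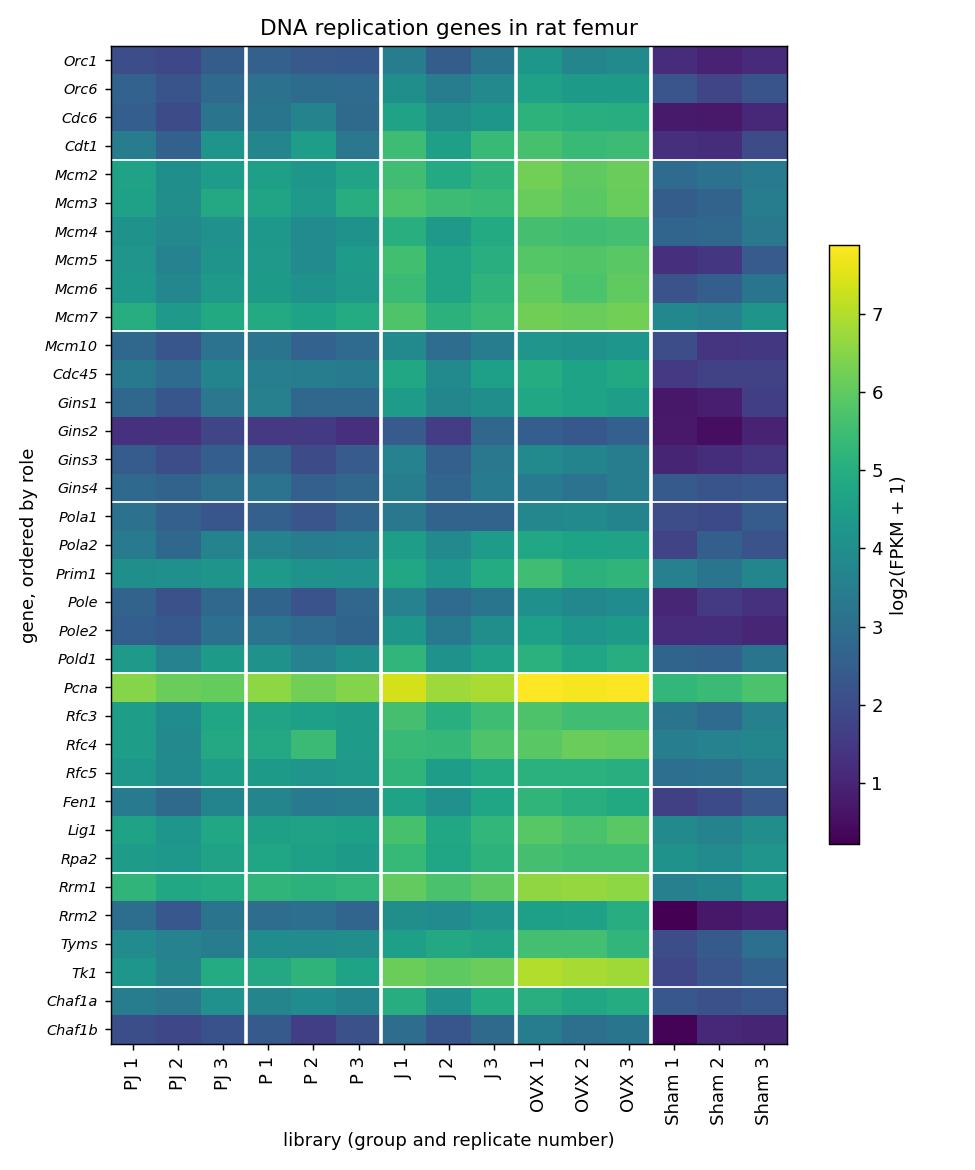
Level of each DNA replication gene in each library, as log2(FPKM + 1) by colour, with genes grouped by role from origin licensing at the top to chromatin assembly at the bottom and libraries ordered by group from PJ to Sham. The OVX columns are brightest and the Sham columns darkest, and Pcna is the brightest gene in all 15 libraries.

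Nucleotide supply showed the widest differences between OVX and Sham. Tk1, the thymidine kinase that salvages thymidine in S phase, had 17.8, 12.1 and 29.2 FPKM in PJ, 27.7, 36.0 and 24.0 in P, 69.9, 61.3 and 68.5 in J, 126, 116 and 108 in OVX and 2.64, 3.74 and 5.10 in Sham. No OVX or J value came near those of Sham, the PJ and P values lay between them and overlapped each other, and OVX averaged 117 ± 9.13 FPKM, against 3.83 ± 1.24 in Sham (SD, n = 3 each). The fitted log2 fold change in OVX against Sham was 4.64 ± 0.27 (SE, adjusted p = 1.32e-07 by limma), the largest among the members, and the ratio of the means was 30.5. Rrm2, the subunit of ribonucleotide reductase that is made chiefly in S phase, had 6.88, 3.89 and 8.02 FPKM in PJ, 6.68, 7.10 and 5.51 in P, 14.8, 14.1 and 17.6 in J, 22.2, 23.3 and 30.7 in OVX and 0.166, 0.650 and 0.837 in Sham. The value of Sham 1 rested on 21 recovered reads (95% Poisson interval 13.0 to 32.1, counting error only), the fewest of any member. Rrm2 rose by 4.10 ± 0.23 on the log2(FPKM + 1) scale in OVX, which understates the ratio of means of 46.1 because the Sham level is below 1 FPKM.

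Rrm1, the large subunit of the same enzyme, had 36.1, 26.5 and 29.5 FPKM in PJ, 36.2, 34.0 and 37.5 in P, 64.6, 50.2 and 60.7 in J, 96.1, 100.4 and 95.1 in OVX and 10.7, 12.3 and 19.6 in Sham. All OVX values were above all J values, these were above all P and PJ values, and Sham was lowest. Its log2 fold change in OVX against Sham was 2.74 ± 0.19 (SE), smaller than that of Rrm2, and the subunits therefore stood at unlike ratios in the groups. Rrm1 over Rrm2, each in FPKM, was 5.25, 6.82 and 3.68 in PJ, 5.41, 4.80 and 6.80 in P, 4.35, 3.57 and 3.45 in J, 4.34, 4.31 and 3.09 in OVX and 64.6, 18.9 and 23.4 in Sham. The ratio was higher in each Sham library than in any other library, and the other 12 libraries lay between 3.09 and 6.82. Tyms, which makes the thymidine nucleotide of DNA from the uridine one, had 14.1, 11.2 and 9.74 FPKM in PJ, 14.3, 14.1 and 14.9 in P, 22.1, 27.7 and 25.0 in J, 47.4, 46.6 and 37.4 in OVX and 3.09, 4.25 and 7.07 in Sham. The groups kept the same order except that P overlapped PJ, and Tyms rose by 3.00 ± 0.21 in OVX against Sham.

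Licensing factors came next. Cdc6, which recruits the MCM ring to the origin complex, had 4.73, 2.97 and 7.92 FPKM in PJ, 8.14, 11.4 and 6.28 in P, 23.7, 15.1 and 18.2 in J, 35.3, 31.8 and 30.9 in OVX and 0.699, 0.691 and 1.17 in Sham. Each group was separate from every other except PJ from P, and the log2 fold change in OVX against Sham was 4.19 ± 0.27 (SE, adjusted p = 2.34e-07), a ratio of means of 38.4. Cdt1, the partner of Cdc6 in loading, had 9.85, 5.04 and 17.1 FPKM in PJ, 12.2, 21.6 and 8.52 in P, 43.7, 22.4 and 41.7 in J, 49.2, 41.4 and 43.1 in OVX and 1.45, 1.33 and 2.93 in Sham. Here J 1 and J 3 reached the OVX range and J 2 did not, and the change in OVX against Sham was 4.01 ± 0.40. Gmnn codes for geminin, the inhibitor of Cdt1, and Cdt1 over Gmnn in FPKM was 0.484, 0.499 and 0.921 in PJ, 0.581, 1.62 and 0.523 in P, 0.970, 0.954 and 1.42 in J, 1.04, 0.885 and 1.02 in OVX and 0.547, 0.308 and 0.533 in Sham. The Sham libraries lay below all OVX and J libraries in this ratio, while P 2 stood above all other libraries. Orc1, the largest subunit of the origin complex, rose by 2.84 ± 0.24, and Orc6, its smallest subunit, by 2.37 ± 0.19.

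The genes of the MCM helicase ring, Mcm2 to Mcm7, code for 6 proteins that sit in the ring in equal number. Mcm5 had 17.7, 11.3 and 17.3 FPKM in PJ, 19.2, 14.1 and 20.3 in P, 46.0, 24.7 and 32.0 in J, 56.7, 54.8 and 59.5 in OVX and 1.41, 1.70 and 4.37 in Sham. Mcm7 had 30.8, 19.5 and 28.2 FPKM in PJ, 28.9, 24.3 and 29.7 in P, 53.3, 34.4 and 41.6 in J, 73.3, 69.2 and 74.2 in OVX and 12.7, 11.2 and 17.0 in Sham. In both, OVX was above J, J above P and PJ, and Sham lowest, but Sham Mcm5 lay far below Sham Mcm7. In OVX against Sham, Mcm5 rose by 4.15 ± 0.30 (SE) and Mcm7 by 2.34 ± 0.20, and Mcm2 (2.97 ± 0.20), Mcm3 (3.17 ± 0.26), Mcm4 (2.63 ± 0.20) and Mcm6 (3.28 ± 0.26) lay between them. The highest of the 6 levels divided by the lowest, in FPKM, was 1.82, 1.72 and 1.75 in PJ, 1.56, 1.72 and 1.86 in P, 1.65, 2.23 and 1.44 in J, 1.56, 1.53 and 1.56 in OVX and 9.05, 6.60 and 3.89 in Sham. The subunit genes stood within about the same narrow range in the 12 libraries of ovariectomised rats, and were spread wider in each Sham library, where Mcm7 was highest and Mcm5 lowest.

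**Figure D2:**
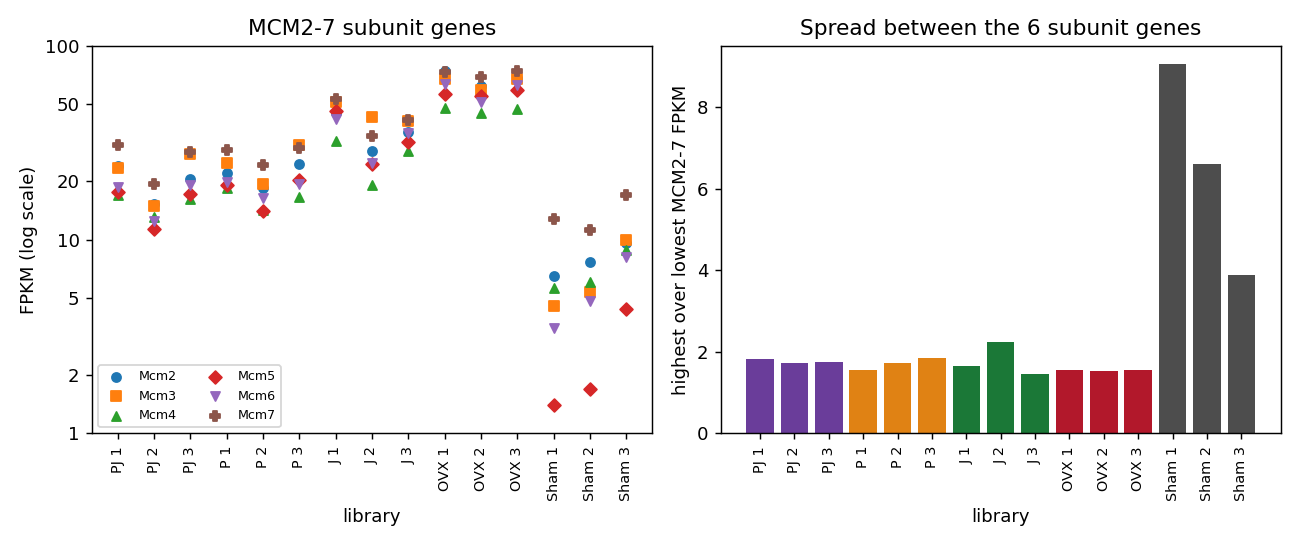
Levels of the 6 MCM ring genes in each library (left, FPKM on a log axis) and the highest divided by the lowest of the 6 (right, a ratio on a linear axis from 0), with groups from PJ to Sham. The 3 Sham libraries have ratios of 3.89 to 9.05, and the other 12 have ratios of 1.44 to 2.23.

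Since E2F factors are known to act at promoters of replication genes, the letters of the E2F site were looked for in promoter windows of RefSeq (build GRCr8, 250 bases before to 50 after the start of a gene). Windows were at hand for 30 of the 35 members, all but Orc1, Cdc6, Mcm4, Gins4 and Rrm2. The letters searched were TTTCCCGC, TTTCGCGC, TTTGCCGC and TTTGGCGC on both strands, and matches that overlap were each counted. They were in 15 of 30 member windows (50%) and in 716 of 33469 windows of all genes (2.14%). Mcm5 had 3 matches, and Cdt1, Mcm2, Mcm3, Mcm6, Mcm7, Gins1 and Rfc3 had 2 each. Gins3, Pola1, Pole, Pole2, Lig1, Rpa2 and Tyms had 1 each. The letters CCAAT, the core of the NF-Y site, were in 19 of 30 (63.3%) against 37.5% of all windows, the letters TTTGAA of the cell cycle homology region in 3 of 30 (10%) against 18.3%, and TATAAA in 0 of 30 against 14.2%, all on both strands. The windows of all genes were not matched to those of the members in base composition. A match is a run of letters and not a shown binding site. The 5 MCM ring genes with a window are printed because all of them hold E2F letters and they rose and fell together, and Tk1 is printed as the member with the largest change and no match. Each stretch runs from 250 bases before to 30 after the start on the strand of the gene, with the matched letters in capitals. The regions are chr4:122918065-122918344 (minus strand) for Mcm2, chr9:30733717-30733996 (minus strand) for Mcm3, chr19:13488563-13488842 (plus strand) for Mcm5, chr13:42404323-42404602 (minus strand) for Mcm6, chr12:22163149-22163428 (minus strand) for Mcm7 and chr10:103544748-103545027 (minus strand) for Tk1.
Mcm2: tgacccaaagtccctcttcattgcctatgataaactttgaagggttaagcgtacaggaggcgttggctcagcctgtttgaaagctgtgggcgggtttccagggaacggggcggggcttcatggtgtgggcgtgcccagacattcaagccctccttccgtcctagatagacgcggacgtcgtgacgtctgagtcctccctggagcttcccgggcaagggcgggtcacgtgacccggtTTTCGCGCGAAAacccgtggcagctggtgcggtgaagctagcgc
Mcm3: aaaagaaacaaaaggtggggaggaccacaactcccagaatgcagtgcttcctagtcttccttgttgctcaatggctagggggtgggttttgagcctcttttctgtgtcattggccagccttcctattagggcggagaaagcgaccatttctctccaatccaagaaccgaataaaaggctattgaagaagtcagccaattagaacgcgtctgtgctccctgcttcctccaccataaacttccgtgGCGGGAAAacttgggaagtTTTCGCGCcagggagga
Mcm5: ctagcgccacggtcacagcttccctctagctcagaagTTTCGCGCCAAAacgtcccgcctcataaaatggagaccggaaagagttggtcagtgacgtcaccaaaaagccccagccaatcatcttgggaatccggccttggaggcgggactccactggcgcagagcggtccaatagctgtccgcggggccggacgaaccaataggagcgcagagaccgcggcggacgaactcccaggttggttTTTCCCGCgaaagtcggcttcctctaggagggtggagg
Mcm6: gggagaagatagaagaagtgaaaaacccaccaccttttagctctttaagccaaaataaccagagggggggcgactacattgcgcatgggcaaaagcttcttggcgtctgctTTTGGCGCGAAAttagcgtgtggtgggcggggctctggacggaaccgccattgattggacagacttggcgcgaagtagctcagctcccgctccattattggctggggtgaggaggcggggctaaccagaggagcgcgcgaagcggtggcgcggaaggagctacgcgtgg
Mcm7: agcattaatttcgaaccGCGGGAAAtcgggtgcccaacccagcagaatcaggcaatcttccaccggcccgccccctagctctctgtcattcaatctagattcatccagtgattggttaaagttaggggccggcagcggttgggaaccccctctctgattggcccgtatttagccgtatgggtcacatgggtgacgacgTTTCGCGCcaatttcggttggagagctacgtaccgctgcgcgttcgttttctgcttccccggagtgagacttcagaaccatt
Tk1: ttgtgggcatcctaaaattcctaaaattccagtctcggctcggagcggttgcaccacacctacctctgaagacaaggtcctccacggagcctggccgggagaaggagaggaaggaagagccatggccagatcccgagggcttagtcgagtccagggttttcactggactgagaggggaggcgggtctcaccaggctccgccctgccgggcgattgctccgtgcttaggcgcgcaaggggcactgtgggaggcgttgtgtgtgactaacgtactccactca

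The capital runs of 12 letters in Mcm2, Mcm5 and Mcm6 are 2 matches on opposite strands that share 4 letters. In Mcm2 they begin 14 and 10 bases before the start, in Mcm6 139 and 135, and in Mcm5 213 and 209, with the third Mcm5 match 8 bases before the start. The 15 members with a match had log2 fold changes of 1.44 to 4.15 in OVX against Sham, with a median of 2.97, and the 15 with a window and no match had 1.73 to 4.64, with a median of 2.43. The ranges overlapped almost whole. Rpa2, which has a match, had the lowest change of these 30 genes and Tk1, which has none, the highest.

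Cdc45 and the GINS genes, whose proteins complete the helicase, showed the least uniform behaviour. Cdc45 on the row ENSRNOG00000070046 had 8.95, 6.37 and 11.8 FPKM in PJ, 10.3, 9.97 and 9.40 in P, 27.0, 13.3 and 22.4 in J, 30.3, 24.2 and 28.3 in OVX and 1.79, 2.27 and 2.28 in Sham, and rose by 3.20 ± 0.24 (SE, adjusted p = 5.05e-07) in OVX against Sham. J 1 lay within the OVX range, J 2 and J 3 lay below it, and P and PJ lay between OVX and Sham. The row ENSRNOG00000050071, to which the tables give the same name, had 22.1, 28.1 and 22.4 FPKM in PJ, 17.6, 27.1 and 14.3 in P, 14.3, 15.0 and 8.14 in J, 2.28, 6.29 and 9.16 in OVX and 30.7, 37.9 and 24.5 in Sham. OVX was the lowest group and overlapped J, the Sham values overlapped those of PJ and P, and the log2 fold change in OVX against Sham was -2.34 ± 0.37 (adjusted p = 1.67e-04). In the RefSeq gene order, Cdc45 lies between Ufd1 and Cldn5, a claudin gene of endothelial cells. All 7 endothelial markers listed fell in OVX against Sham, and all 7 rose in P and in PJ against OVX, with a mean log2(FPKM + 1) of 4.77 to 5.70 in PJ, 5.06 to 5.32 in P, 4.21 to 4.49 in J, 3.23 to 3.80 in OVX and 5.48 to 6.21 in Sham. Of 7 stromal matrix genes, 6 also fell in OVX against Sham, and all 7 rose in P and in PJ against OVX. Of all genes tested, 28.9% fell in OVX against Sham, and 24.2% rose in P and 29.8% in PJ against OVX. Whether the second row is wrongly named was not tested, and medians of the members leave it out.

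**Figure D3:**
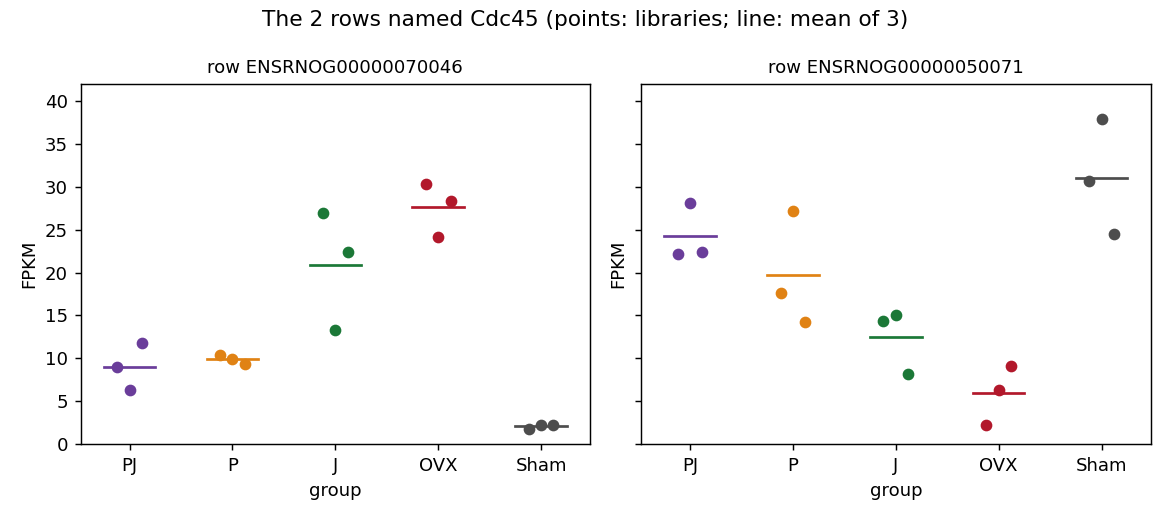
FPKM of the row ENSRNOG00000070046 (left) and the row ENSRNOG00000050071 (right), which the tables both name Cdc45, with 1 point per library and a line at the mean of 3 in each group. The left row is highest in OVX, with 24.2 to 30.3 FPKM, and the right row is lowest there, with 2.28 to 9.16 FPKM.

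Gins1 rose most of the 4 GINS genes, by 3.58 ± 0.31 (SE) in OVX against Sham, followed by Gins3 with 2.46 ± 0.26 and Gins2 with 1.73 ± 0.26. Gins4, whose protein sits in the same complex in equal number, had 6.08, 5.29 and 7.21 FPKM in PJ, 7.85, 4.88 and 5.72 in P, 9.78, 5.55 and 9.32 in J, 9.32, 7.86 and 10.0 in OVX and 4.28, 3.65 and 3.88 in Sham. Its OVX values were above all Sham values but overlapped those of J, and its log2 fold change of 1.02 ± 0.21 (adjusted p = 9.66e-04) was the smallest of the members. Mcm10, an activator of the helicase, rose by 2.59 ± 0.27. Gins2 overlaps Gse1 in the RefSeq annotation, as do Pole2 with Klhdc1, Fen1 with Tmem258, Lig1 with Zswim9 and Rrm2 with Cys1, and reads of such pairs may be split or shared, since no source used here gives the strand setting of the counting.

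Among the polymerases, Pole2, a subunit of the leading-strand polymerase, rose by 3.23 ± 0.23 (SE) in OVX against Sham and Pole, its catalytic subunit, by 2.64 ± 0.23. Pold1, the catalytic subunit of the lagging-strand polymerase, had 19.4, 11.3 and 20.2 FPKM in PJ, 16.6, 11.2 and 15.4 in P, 37.2, 16.9 and 23.3 in J, 33.7, 25.9 and 30.5 in OVX and 5.44, 5.02 and 8.14 in Sham. J 1 exceeded all OVX values and J 2 and J 3 were below them. Its change in OVX against Sham was 2.13 ± 0.29. Pola1, the catalytic subunit of the polymerase that extends primers, had 7.67, 4.98 and 3.83 FPKM in PJ, 4.98, 3.70 and 5.53 in P, 8.82, 5.30 and 5.25 in J, 12.6, 13.5 and 11.6 in OVX and 3.09, 2.81 and 4.50 in Sham. OVX stood clear of all other groups, and PJ, P and Sham overlapped. Pola1 rose by 1.62 ± 0.24 in OVX, its partner Pola2 by 2.53 ± 0.24 and Prim1, the primase, by 1.80 ± 0.19.

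Pcna, the sliding clamp, had 88.8, 69.1 and 66.3 FPKM in PJ, 94.4, 75.0 and 85.8 in P, 166, 107 and 117 in J, 233, 218 and 225 in OVX and 38.2, 42.2 and 51.2 in Sham. It was the highest of the members in all 15 libraries on this per-length scale, and it rose by 2.35 ± 0.18 (SE) in OVX against Sham, with J again between OVX and the P and PJ libraries. Tk1 over Pcna in FPKM was 0.201, 0.175 and 0.441 in PJ, 0.293, 0.480 and 0.280 in P, 0.420, 0.571 and 0.583 in J, 0.541, 0.530 and 0.479 in OVX and 0.0691, 0.0886 and 0.0997 in Sham, with no Sham library reaching any other library. The clamp loader genes changed by like amounts, Rfc3 by 2.38 ± 0.22, Rfc4 by 2.43 ± 0.26 and Rfc5 by 1.89 ± 0.20. Fen1, which trims the ends of Okazaki fragments, rose by 3.06 ± 0.24, Lig1, which seals them, by 2.00 ± 0.19, and Rpa2, a subunit of the protein that coats single-stranded DNA, by 1.44 ± 0.16. The histone chaperone genes Chaf1a and Chaf1b rose by 2.68 ± 0.24 and 2.42 ± 0.26.

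**Figure D4:**
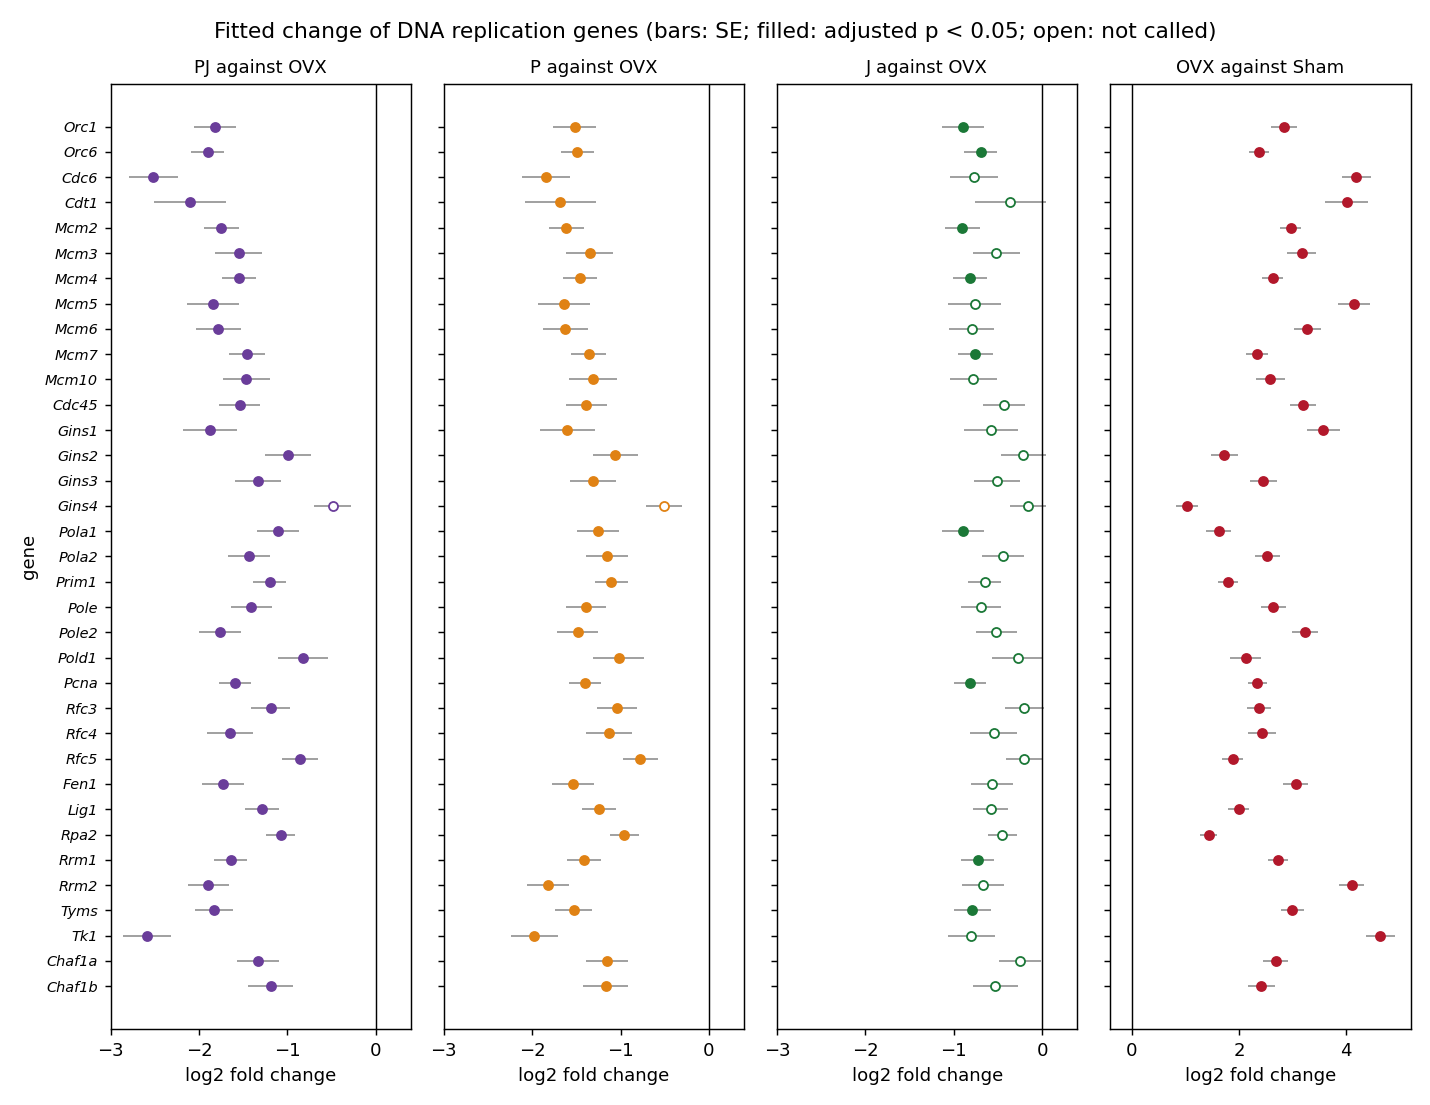
Fitted log2 fold change of each DNA replication gene on the log2(FPKM + 1) scale in PJ, P and J against OVX and in OVX against Sham, with bars of 1 SE, filled points for adjusted p below 0.05 and open points for genes not called. All points lie below 0 in the 3 comparisons with OVX and above 0 in OVX against Sham, and Gins4 lies nearest to 0 in each.

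With the Juglans regia extract alone, part of the members were lower than in OVX. In J against OVX, 9 members fell, against 2.79% of all genes tested, and 0 rose, against 3.27%. They were Orc1, Orc6, Mcm2, Mcm4, Mcm7, Pola1, Pcna, Rrm1 and Tyms. All 35 log2 fold changes were below 0, from -0.90 to -0.16 with a median of -0.58, while the median of all genes was 0.11. At an unadjusted p below 0.05, 22 of the 36 rows differed, against 25% of all genes. In FPKM, 25 members were lower in every J library than in every OVX library, against 14.3% of all genes. Mcm2, the member with the lowest fold change, had 44.8, 28.8 and 35.8 FPKM in J and 74.1, 62.3 and 68.1 in OVX, and fell by 0.90 ± 0.20 on the log2 scale (SE, adjusted p = 0.025). J 2 was the lowest of the J libraries in 32 of 35 members and J 1 the highest in 29. The count of 9 rested on single libraries, since it was 0 without OVX 1, OVX 2, J 2 or J 3, 3 without OVX 3, Sham 2, P 1 or P 3, 4 without J 1, and 5 without Sham 1 or PJ 1. Calls over all genes also fell with these libraries left out, from 402 lower as reported. The number was 12 when OVX 1 was dropped, 52 for OVX 2 and 47 for J 3, but 247 for J 2. The count of 9 members also rested on the scale. It was 0 after rescaling to TPM (the same sum in every library) and 15 after median-ratio scaling.

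With the Psoralea corylifolia extract, nearly all members were lower than in OVX. In P against OVX, 34 members fell, against 15% of all genes tested, and the second Cdc45 row rose, against 24.2%. The log2 fold changes of the 35 members were -1.98 to -0.51 with a median of -1.39, against a median of 0.12 over all genes, and all 35 were lower in every P library than in every OVX library, as were 20.8% of all genes. Tk1 had the largest change (-1.98 ± 0.27, SE, adjusted p = 1.85e-04 by limma), followed by Cdc6 (-1.84 ± 0.27), Rrm2 (-1.82 ± 0.23) and Cdt1 (-1.68 ± 0.40). Gins4 alone was not called, at -0.51 ± 0.21 (adjusted p = 0.0658). By role, the median was -1.60 for licensing factors, -1.54 for the MCM ring, -1.31 for helicase activation, -1.20 for polymerases and primase, -1.09 for the clamp and its loader and -1.68 for nucleotide supply. The count of 34 was 33 to 35 when any single library was left out.

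The combined extract gave the same picture against OVX. In PJ against OVX, 34 members fell, against 14.6% of all genes, and the second Cdc45 row rose, against 29.8%. Changes of the 35 members were -2.59 to -0.49 with a median of -1.55, against 0.22 over all genes, and all 35 were lower in every PJ library than in every OVX library, against 19.2% of all genes. Tk1 (-2.59 ± 0.27, SE, adjusted p = 2.55e-05), Cdc6 (-2.52 ± 0.27) and Cdt1 (-2.10 ± 0.40) had the largest changes, Pold1 (-0.82 ± 0.29, adjusted p = 0.0329) the smallest of those called, and Gins4 (-0.49 ± 0.21, adjusted p = 0.0704) was not called. The changes of the licensing factors ran from -2.52 to -1.82, and the median by role was -1.65 for the MCM ring, -1.40 for helicase activation, -1.30 for polymerases and primase, -1.39 for the clamp and its loader and -1.86 for nucleotide supply. The 3 treatments were compared with the same OVX libraries, so their values are not independent of each other. Pold1 was no longer called without OVX 1, OVX 3 or PJ 2, with -0.74, -0.81 and -0.57.

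The treatments were also set against each other. In P against J, 11 members fell, against 3.05% of all genes, and 0 rose, against 4.37%, with a median log2 fold change of -0.74 over the 35. They were Orc6, Cdc6, Mcm2, Cdc45, Pole2, Rfc3, Fen1, Rrm1, Rrm2, Tk1 and Chaf1a. Tk1 fell by 1.18 ± 0.27 (SE, adjusted p = 0.0364), and was not called without J 1, J 2, J 3, P 1, P 3, OVX 2 or Sham 2 (adjusted p = 0.0506 to 0.109 by limma). All 3 values of P were below all 3 of J in 26 members, against 12.9% of all genes. The count was 0 without J 1, J 3, P 1, P 3, OVX 2 or Sham 2, 4 without P 2 or PJ 1, 5 without Sham 1 or OVX 1, 6 without OVX 3, and 21 without PJ 3. It was 0 after rescaling to TPM and 25 after median-ratio scaling. In each fit with a count of 0, 0 of all genes tested were called in either direction. Over all genes tested, 439 were lower as reported, 1006 without PJ 3 and 844 after median-ratio scaling.

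In PJ against J, 26 members fell, against 5.88% of all genes, with a median of -0.93 over the 35, and 29 were lower in every PJ library than in every J library, against 10.5% of all genes. Tk1 (-1.79 ± 0.27, SE, adjusted p = 0.00453) and Cdc6 (-1.74 ± 0.27) had the largest changes. Those not called were Mcm10, the GINS genes Gins2, Gins3 and Gins4, Pola1, Prim1, Pole, Pold1 and Chaf1b, besides the second Cdc45 row. The count was 5 without PJ 2, 10 without J 1 or J 3 and 12 without PJ 1. Over all genes tested, 848 were lower as reported and 270 without PJ 2. There were 399 without J 1, 454 without J 3 and 387 without PJ 1.

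In PJ against P, no member was called (limma), and 0% of all genes tested were called. An unadjusted p below 0.05 was found for 3 of 36 rows, against 2.05% of all genes. The log2 fold changes were -0.68 to 0.20 with a median of -0.15, against 0.08 over all genes. The 3 were Cdc6 (-0.68 ± 0.27, SE, 95% interval -1.27 to -0.08), Tk1 (-0.61 ± 0.27, 95% interval -1.19 to -0.04) and Orc6 (-0.42 ± 0.19, 95% interval -0.82 to -0.01), and their adjusted p was 1.00. For Mcm2 the difference was -0.13 ± 0.20 with an interval of -0.56 to 0.30, and for Pcna it was -0.19 ± 0.18 with an interval of -0.58 to 0.20. The intervals of Mcm2 and Pcna allow differences in either direction, so the data do not show that the 2 extracts act alike on these genes. The doses differed, as P rats received 2.4 g and PJ rats 4.0 g of extract per kg per day.

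Whether the combined extract changed the members by the sum of the single extracts was tested on the log2 scale as PJ minus J minus P plus OVX. No member was called, and 0% of all genes were called (limma). An unadjusted p below 0.05 was found for 5 of 36 rows, against 9.24% of all genes. The values were -0.06 to 1.04 with a median of 0.47, against -0.01 over all genes. The 5 were Pola1 (1.04 ± 0.34, SE), Mcm2 (0.77 ± 0.28), Mcm4 (0.72 ± 0.28), Pcna (0.62 ± 0.25) and Mcm7 (0.66 ± 0.28), and a value above 0 means that the fall in PJ was smaller than the sum of the falls in J and P.

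The distance that remained from Sham was tested in each treated group. In PJ against Sham, 28 members were higher, against 7.72% of all genes, with a median log2 fold change of 1.17. In P against Sham, 31 were higher, against 5.95% of all genes, with a median of 1.32. In J against Sham, all 35 were higher, against 23% of all genes, with a median of 1.95, and the second Cdc45 row was lower, against 20.9%. Members not called in PJ against Sham were Orc6, Gins2, Gins4, Pola1, Prim1, Rfc4 and Rpa2, and in P against Sham Gins2, Gins4, Pola1 and Rpa2. Tk1 remained higher by 2.05 ± 0.27 (SE) in PJ, 2.66 ± 0.27 in P and 3.84 ± 0.27 in J, each against Sham. The PJ count was 18 without Sham 1 and 19 without PJ 3. Over all genes tested, 1113 were higher as reported, 310 without Sham 1 and 346 without PJ 3. In the group means, 31 members stood in the order OVX, J, P, PJ and Sham from high to low, and the other 4 had P below PJ. Over the 5 groups, all 36 rows passed the F test, as did 50% of all genes.

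Other genes of the replication machinery, which are not among the 35, were counted by row. Of 49 rows tested, which hold 48 genes because Pole3 stands on a pair of rows, 40 rose and none fell in OVX against Sham (median log2 fold change 1.55), 6 fell in J, 37 fell in P (median -0.91), and 36 fell and 1 rose in PJ (median -0.93), each against OVX. Over all genes tested, 25.3% rose in OVX against Sham. Against OVX, 2.79% fell in J, 15% in P and 14.6% in PJ, where 29.8% rose. Both Pole3 rows rose in OVX against Sham and fell in P against OVX, 1 of them fell in PJ, and Rnaseh2a was under the filter on low values. Dbf4, the activator of the kinase that fires origins, had 8.43, 6.19 and 10.8 FPKM in PJ, 11.1, 10.2 and 8.91 in P, 18.5, 16.2 and 18.9 in J, 31.1, 32.7 and 30.8 in OVX and 1.80, 1.56 and 2.93 in Sham, and rose by 3.42 ± 0.19 (SE) in OVX and fell by 1.81 ± 0.19 in PJ. Its groups were separate except PJ from P. Uhrf1, which brings the maintenance methyltransferase to new DNA, rose by 4.50 ± 0.29 in OVX, Clspn, the checkpoint adaptor claspin, by 3.70 ± 0.22 and Ticrr, an initiation factor, by 2.55 ± 0.17. In PJ against OVX, Clspn had -1.99 ± 0.22, Wdhd1, which ties the primase polymerase to the helicase, -1.67 ± 0.18 and Atad5, which unloads the clamp, -1.68 ± 0.18. The gene that rose there was Pold4, the smallest subunit of the lagging-strand polymerase, with 31.1, 34.9 and 46.9 FPKM in PJ and 24.8, 25.0 and 26.0 in OVX and a log2 fold change of 0.54 ± 0.20 (adjusted p = 0.0457).

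Of 25 regulators of entry into S phase, 18 rose in OVX against Sham, against 25.3% of all genes tested. The 4 that fell were a smaller share than the 28.9% over all genes. Ccna2, the cyclin of S phase, rose by 4.39 ± 0.20 (SE), the E2F activator E2f2 by 4.38 ± 0.31, and the E2F repressors E2f7 and E2f8 by 2.87 ± 0.21 and 4.14 ± 0.23. Those that fell were Ccnd1 (-2.41 ± 0.22), the kinase inhibitors Cdkn1a (-2.51 ± 0.55) and Cdkn1c (-1.78 ± 0.32), and E2f5 (-0.86 ± 0.18). Ccnd1, the cyclin D that answers to growth signals, had 22.9, 17.7 and 12.1 FPKM in PJ, 15.2, 19.9 and 17.0 in P, 8.44, 7.25 and 11.7 in J, 2.61, 3.11 and 3.79 in OVX and 19.3, 20.3 and 23.6 in Sham, which is the reverse of the order of the replication genes. Against OVX, 3 of the 25 fell and 1 rose in J, 18 fell and 3 rose in P, and 16 fell and 3 rose in PJ. Over all genes tested, 2.79% fell and 3.27% rose in J, 15% and 24.2% in P, and 14.6% and 29.8% in PJ. In P and in PJ, rises were thus a smaller share of the 25 than of all genes. The 3 that rose were Ccnd1 (2.12 ± 0.22 in PJ and 2.14 ± 0.22 in P), Cdkn1c (2.15 ± 0.32 in PJ and 1.49 ± 0.32 in P) and E2f5 (0.66 ± 0.18 in PJ and 0.53 ± 0.18 in P), and Ccnd1 was the 1 that rose in J (1.27 ± 0.22). Among those that fell in PJ were Ccna2 (-2.08 ± 0.20), E2f8 (-2.31 ± 0.23) and Rb1 (-1.20 ± 0.14), the restraint on E2F. All 14 mitosis genes listed rose in OVX against Sham (median 4.09), 2 fell in J, and all 14 fell in P (median -1.71) and in PJ (median -1.95).

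Most markers of red cells, neutrophils and megakaryocytes moved with the replication genes, and B cell markers did so only in OVX against Sham. All 12 erythroid markers rose in OVX against Sham (median log2 fold change 5.91), none was called in J against OVX, and all 12 fell in P and in PJ. Their mean log2(FPKM + 1) was 3.16 to 5.34 in PJ, 5.22 to 6.23 in P, 6.84 to 7.06 in J, 7.81 to 8.16 in OVX and 1.75 to 3.11 in Sham. All 6 markers of neutrophil precursors rose in OVX, none was called in J, all 6 fell in P and 5 fell in PJ, with 5.16 to 5.32 in PJ, 4.87 to 6.13 in P, 5.92 to 7.16 in J, 7.42 to 7.66 in OVX and 1.60 to 3.55 in Sham. Of 7 tested markers of later neutrophils, 6 rose in OVX, none was called in J, 5 fell in P and 6 in PJ. All 7 megakaryocyte markers rose in OVX, 2 fell in J, and all 7 fell in P and in PJ, with 3.30 to 4.94 in PJ, 4.25 to 5.11 in P, 5.70 to 5.87 in J, 7.03 to 7.67 in OVX and 1.20 to 2.49 in Sham. Of 9 B cell markers 8 rose in OVX, but none was called in P or J against OVX and 1 rose in PJ, with 4.91 to 5.53 in PJ, 3.67 to 5.43 in P, 5.65 to 6.08 in J, 4.91 to 5.27 in OVX and 2.01 to 3.38 in Sham. The median log2 fold change of the B cell list against OVX was 0.01 in PJ, -0.36 in P and 0.69 in J. Gp6 of the megakaryocyte list and Vpreb1 of the B cell list were at 0 in Sham 1, and no erythroid or neutrophil precursor marker was at 0 in any library. Over all genes tested, 25.3% rose in OVX against Sham, and 2.79% fell in J, 15% in P and 14.6% in PJ against OVX. The part of these cell types in the levels of the replication genes was not tested.

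**Figure D5:**
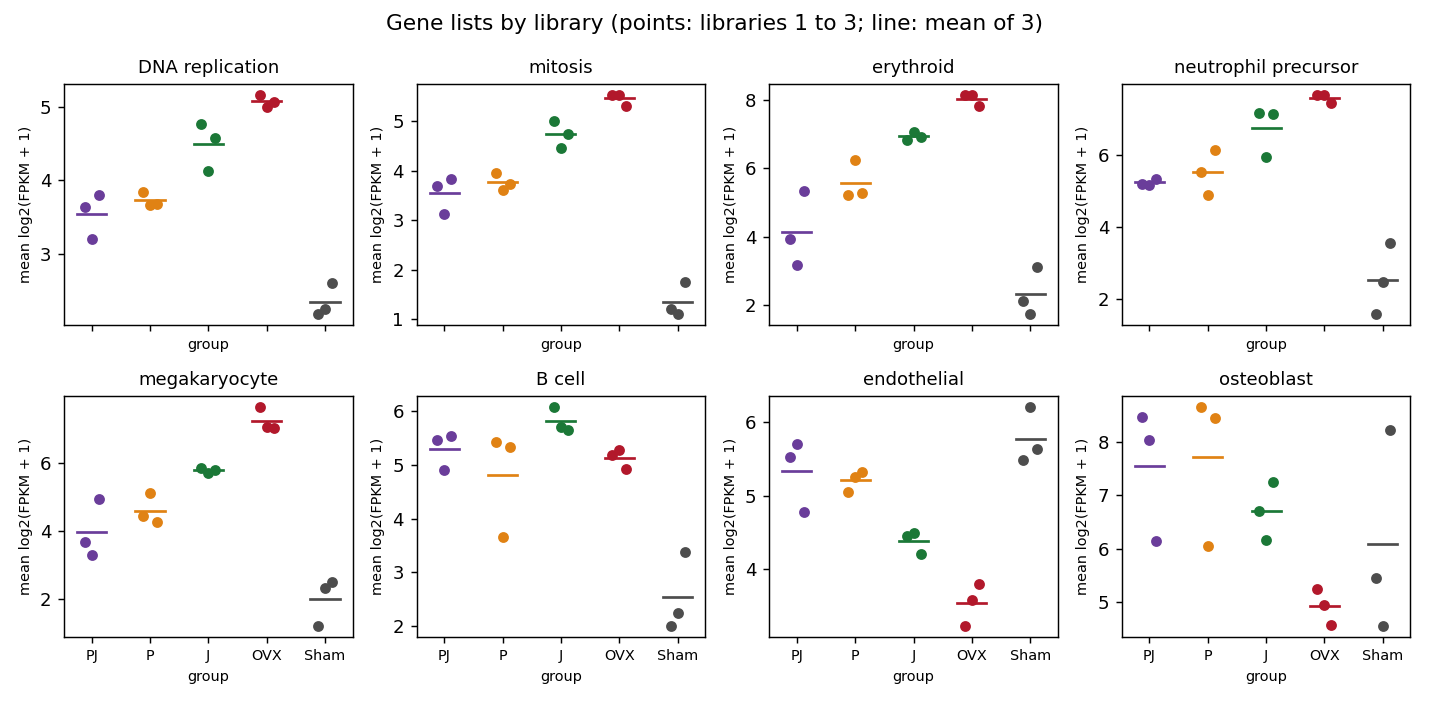
Mean log2(FPKM + 1) over the DNA replication genes and over lists of mitosis genes and cell type markers, with 1 point per library and a line at the mean of 3 in each group, from PJ to Sham (each panel has its own axis, which does not start at 0). The replication, mitosis, erythroid, neutrophil precursor and megakaryocyte lists are highest in OVX and lowest in Sham, the B cell list is highest in J, and the endothelial list is lowest in OVX.

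The other lists of cell type and tissue markers differed from each other. Of 7 genes of stromal matrix, 6 fell in OVX against Sham, 4 rose in J, and all 7 rose in P and in PJ against OVX, with 5.04 to 7.49 in PJ, 6.56 to 7.59 in P, 5.44 to 5.68 in J, 3.33 to 4.05 in OVX and 7.60 to 7.94 in Sham. In OVX against Sham, 5 of 5 tested cartilage markers, 1 of 7 osteoblast, 1 of 6 osteoclast and 1 of 6 muscle markers fell, none of 7 adipocyte or 6 macrophage markers was called, and 1 of 6 T and NK cell markers rose. In PJ against OVX, all 7 adipocyte and all 6 osteoclast markers rose, as did 3 of 6 macrophage, 2 of 7 osteoblast, 1 of 5 cartilage and 2 of 6 T and NK cell markers, while 1 T and NK cell marker fell. In P, 3 of 7 adipocyte, 5 of 6 osteoclast, 1 of 6 macrophage, 4 of 7 osteoblast and 2 of 5 cartilage markers rose and 1 T and NK cell marker fell, and in J none of these was called. Over all genes tested, 28.9% were lower and 25.3% higher in OVX against Sham. Against OVX, 29.8% were higher and 14.6% lower in PJ, and 24.2% higher and 15% lower in P. Counts of 1 or 2 markers in lists of 5 to 7 cannot be told apart from these shares. The share of the tissue that each library held was not measured, and its part in the values above was not tested.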

How the data were processed

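Polyadenylated RNA of rat femur was sequenced after TRIzol extraction and a TruSeq RNA library kit, per the labels' protocols. Read trimming, alignment and counting tools named in the submitters' processing notes are featureCounts 2.0.6, STAR 2.7.11a and fastp 0.23.4, and the build is mRatBN7.2. The deposited column whose name ends in count holds FPKM values made by the authors, and the column named FPKM was empty.

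Within a gene, FPKM changes in steps of 1 read. From these steps, 24205 of 24207 genes above 0 had a length that made their values whole within 0.05, and totals of 34.4 to 61.0 times 1000000 reads followed, in which both ends of a pair may be counted. The floor of 3 reads was 0.0492 to 0.0873 per 1000000 and covers counting error alone. Of the summed FPKM of a library, 11.2% to 35.9% was mitochondrial and 0.084% to 8.25% globin.

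Values were tested as log2(FPKM + 1) with limma 3.58.1 (R 4.3.3) and a variance trend, in 1 model over 15 libraries and 5 groups with 10 residual degrees of freedom, for the 14416 genes that averaged 1 FPKM or more. Fold changes on this scale understate those of low genes. Tests were two-sided, adjusted by Benjamini-Hochberg over all genes tested, with a threshold of 0.05. Scripts were tested on simulated data. All members are named. Of the other replication genes and the S phase regulators, the 4 of smallest p in OVX against Sham and in PJ against OVX, and those called against most of their list, are named. Members and lists were chosen with earlier results of these data known. Settings tried besides were TPM, a pseudocount of 0.1, no filter, an average of 5 FPKM or more, median-ratio scaling, leaving out mitochondrial and globin genes, array weights, only the groups compared, a replicate block, and leaving out each library. A fit of the recovered reads with voom was chosen after seeing the data. Of the marker names, Cd4 and Myh1 were not matched.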

Additional observations from a re-analysis of the deposited data

How the results depend on the processing

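Counts of members in OVX against Sham, P against OVX, PJ against OVX, PJ against P and J against Sham, and the F test, stayed within 1.5 times of the reported ones under each setting apart from leaving out a library. The 9 that fell in J against OVX became 5 with a pseudocount of 0.1, 2 with no filter, 0 in TPM, 15 with median-ratio scaling and 15 with array weights, where 1 rose. Over all genes, 402 were lower there as reported, 334 with a pseudocount of 0.1 and 267 with no filter. TPM gave 221 and array weights 1200. The 11 that fell in P against J became 4 with a pseudocount of 0.1, 0 with no filter, 0 in TPM, 25 with median-ratio scaling, 21 without mitochondrial and globin genes, 31 with array weights and 0 with only the groups compared. Over all genes, the 439 that fell became 170 with a pseudocount of 0.1, 844 with median-ratio scaling and 1791 with array weights. They became 678 without mitochondrial and globin genes, and 0 with no filter, in TPM and with only the groups compared. The 26 that fell in PJ against J became 15 in TPM and 6 with only the groups compared, and array weights let 1 rise. Over all genes, the 848 that fell there became 563 in TPM and 295 with only the groups compared. The 28 higher in PJ against Sham became 11 with only the groups compared, where the 1113 higher over all genes became 388. Array weights called 1 lower in P against Sham and 1 above 0 in additivity (Pola1). The cause of these moves was not tested. Leaving out 1 library gave 0 to 11 falls and 0 to 1 rises in J against OVX, 0 to 21 falls in P against J, 5 to 30 falls and 0 to 1 rises in PJ against J, 18 to 30 rises in PJ against Sham, 24 to 31 in P against Sham, and 34 to 35 rises with 0 to 1 falls in J against Sham. Single genes were recomputed for all members in OVX against Sham and in J, P and PJ against OVX, where changes of sign were found in J against OVX, and in the other comparisons for the genes named with a value, where Mcm2 in PJ against P had -0.27 to 0.039 with 1 library left out, above 0 only without PJ 2. In J against OVX with 1 library left out, Gins2 had -0.45 to 0.11, Gins4 -0.29 to 0.073 and Chaf1a -0.41 to 0.036, each above 0 only without J 2, and with array weights Gins4 had 0.015 and Pold1 0.031. Median-ratio scaling moved the median of all genes by -0.25 in PJ, -0.17 in P and -0.10 in J against OVX, and 2992 genes were then higher and 3575 lower in PJ against OVX (4298 and 2103 as reported), 2790 and 3390 in P (3486 and 2160), and 420 and 949 in J (471 and 402). TPM moved the median by 0.14 in PJ against OVX and by -0.12 in OVX against Sham. Voom on recovered reads gave 35 rises in OVX against Sham and falls of 9 in J, 34 in P and 34 in PJ.

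The replicate numbers were not taken as pairs, since in no comparison did all 3 same-numbered pairs correlate above 0.1 in their deviations (0.10, 0.04 and -0.11 in OVX against Sham). Single pairs ranged more widely, with -0.41, -0.06 and 0.49 in P against Sham. With a replicate block, 35 rose in OVX against Sham, and 10 in J, 35 in P and 35 in PJ fell against OVX, 15 fell in P against J, 31 in PJ against J and 0 in PJ against P, and 31 were higher in P and 30 in PJ against Sham. Depth limits mainly Rrm2, Chaf1b and Gins1, which had 21, 22 and 30 reads in a Sham library.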
